A study of Mus musculus with 8 samples.

Results

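The comparison described here is the difference between 2 genotypes in how the transcriptome changed while mouse embryonic stem cells were differentiated for 6 days. For each gene it is the change from day 0 to day 6 in cells with an Nkx2-5 R141C allele minus the same change in wild-type cells, called the difference in response below. It was computed for 25892 of 34736 gene names with a value (74.5%), those detected above background by both arrays of some group, and it used all 8 arrays of the series. A gene detected in 1 group alone enters through the group where it is high, so counts over tested genes are given as descriptions.

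The 4 groups were wild-type (WT) cells at day 0, cells heterozygous for R141C at day 0, WT cells at day 6 and R141C cells at day 6, with 2 arrays each. Day 0 cells were undifferentiated stem cells, and day 6 cells came from embryoid bodies, aggregates in which stem cells form derivatives of all germ layers. Aggregates of 800 cells were hung in 20 µL drops for 2 days after removal of LIF, the cytokine that maintains the undifferentiated state, kept in suspension for 3 days, plated on 0.1% gelatin at day 5 and collected 24 hours later. No cells were sorted, so each array holds a mixture of cell types in which fewer cells of a type and less RNA per cell cannot be told apart. The 2 samples of a group are biological replicates per the series description, but the labels do not say whether a genotype was 1 clone or several, so the p-values measure the spread between these samples only.

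Nkx2-5 is a homeobox transcription factor that is among the first genes switched on in the cardiac crescent, where it works with GATA and T-box factors to activate chamber, conduction and contractile genes. R141C replaces an arginine of its DNA-binding homeodomain. Differentiating stem cells first silence the naive pluripotency network, then pass through a primitive streak state driven by Wnt and Nodal signals, and from there form heart, blood, vessel, endoderm and other lineages. A gene can differ in its response because the genotypes differed at day 6, because they already differed at day 0, or because they differed in opposite directions at the 2 days, and these cases are kept apart here.

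Signals are log2 of the processed signal minus the 75th percentile of the array, called log2 signal, so a value of 0 lies at that percentile and negative values lie below it. The arrays had between 30989 and 39185 probes above background (55.8% to 70.5%). Several arrays stood apart from their groups. WT day 0 replicate 1 correlated more closely with both R141C day 0 arrays (r = 0.991 and 0.987 across tested genes) than with WT day 0 replicate 2 (r = 0.983). R141C day 6 replicate 2 correlated more closely with both WT day 6 arrays (r = 0.988 and 0.989) than with R141C day 6 replicate 1 (r = 0.982). Values from fits that left out 1 array are therefore given beside many of the results. A fitted difference that involves a group not well above background uses the dim signal as measured, so it is no measured size, and folds against such a group are given as bounds. All arrays lay on 1 slide, with day 0 in one column and day 6 in the other and WT above R141C, so slide position and group cannot be told apart.

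Both genotypes responded to differentiation in much the same direction. With limma and Benjamini-Hochberg adjustment over all tested genes, 6205 genes passed an adjusted p of 0.05 in WT (24.0% of tested genes), 2860 of them higher at day 6 (11.0%) and 3345 lower (12.9%). In R141C cells 4049 genes passed (15.6%), 1968 higher (7.60%) and 2081 lower (8.04%). The WT count was 2151 without WT day 6 replicate 2, 2474 without WT day 6 replicate 1 and 4014 without WT day 0 replicate 2. Leaving out R141C day 0 replicate 1 gave 1619 calls in R141C cells, and leaving out replicate 2 of that group gave 2424. The R141C count was 2572 without R141C day 6 replicate 1 and 2552 without either WT day 6 array. The calls shared by both genotypes numbered 3287, which is 52.9% of the WT calls and 81.1% of the R141C calls, and 3284 of them had the same sign. Among all WT calls, 97.7% had the same sign in R141C cells, and among all R141C calls 98.8% had the same sign in WT cells.

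The R141C response was the narrower of the pair when it was read over the WT calls. Across all tested genes the SD of the response was 1.36 in WT and 1.18 in R141C cells, and the responses correlated across genes with Pearson r = 0.860 and Spearman rho = 0.787, where genes are not independent replicates. The median ratio of the R141C to the WT response was 0.734 over the WT calls. Over the R141C calls the median ratio of the WT to the R141C response was 1.02, and over calls in both it was 0.915 for R141C over WT. Of the 2918 genes called in WT alone, 593 (20.3%) had an unadjusted p under 0.05 in the difference itself, and of the 762 called in R141C alone 176 (23.1%) did. Over all tested genes the share was 5.64%. A call in 1 genotype alone favours genes with unlike responses. The larger shares are therefore partly set by that choice and are no separate support for a difference.

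The genes with the largest shared changes marked the lineages that embryoid bodies form. Hba-x, an embryonic alpha-like globin, was not well above background at day 0 in either genotype and rose at least 5233-fold in WT and at least 1451-fold in R141C cells (adjusted p = 0.000248 and 0.000455, limma). Ttr, a thyroid hormone carrier secreted by visceral endoderm, rose at least 1459-fold in WT and at least 905-fold in R141C cells. Hbb-bh1, an embryonic beta-like globin, rose 1528-fold in WT and 860.2-fold in R141C cells. Among genes that fell in both genotypes, Khdc3, an oocyte and early embryo gene, fell 129-fold in WT and 83.5-fold in R141C cells, and Aoah, which encodes acyloxyacyl hydrolase, fell 60.9-fold and at least 30.3-fold. A lower bound is the mean of the bright group over a mean for the dim group. For each dim array that mean uses the lowest signal counted as above background, or the measured signal where this was higher.

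**Figure D1:**
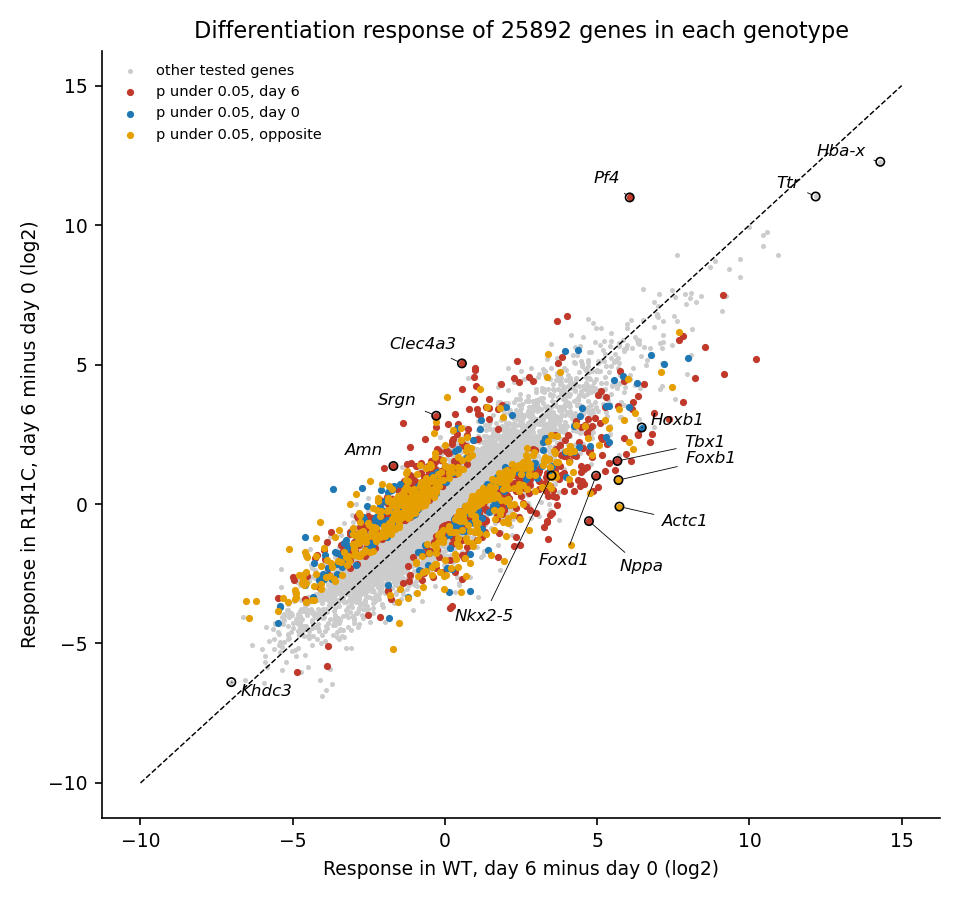
Response of each of 25892 tested genes in WT (horizontal axis) and R141C cells (vertical axis), as day 6 minus day 0 in log2 signal, with equal responses on the dashed line. Coloured points are the 1461 genes with an unadjusted p under 0.05 in the difference, by the day at which it arises; Nppa, Actc1 and Tbx1 lie below the line and Pf4, Clec4a3 and Srgn above it.

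No gene passed an adjusted p of 0.05 in the difference in response (0% of tested genes). The smallest adjusted p was 0.122, that of Foxd1. An unadjusted p under 0.05 was reached by 1461 genes (5.64%), with 813 higher responses in R141C cells (3.14%) and 648 lower ones (2.50%). Without WT day 6 replicate 2 this count was 846 and without WT day 0 replicate 1 it was 2654. Leaving out R141C day 0 replicate 1 gave 2205 and replicate 2 of that group 903, and it was 3039 when R141C day 6 replicate 2 was dropped. The split also depended on scaling: 55.6% of these genes were higher in R141C cells, against 44.7% when arrays were shifted to a common median and 45.2% when signals were raised to the detection floor. The median difference over all tested genes was 0.08, and -0.02 with the median shift. The R141C response was the higher in 15014 tested genes and the lower in 10878. This split stands beside the sign counts of the lists below. A standard error of 0.396 was the median over genes. Differences of 2 or more on the log2 scale were seen in 540 genes, 183 higher and 357 lower in R141C cells.

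A gene was assigned to day 6 where the genotype difference at day 6 made up at least 2/3 of the difference in response, to day 0 where it made up at most 1/3, and otherwise to the opposite class, in which the genotypes differed one way at day 0 and the other way at day 6. Of the 1461 genes, 661 (45.2%) arose at day 6, 230 (15.7%) at day 0 and 570 (39.0%) were opposite. Over all tested genes the shares were 47.5%, 34.0% and 18.4%. Choosing genes by a large difference in response itself favours those with opposite differences at the 2 days. The larger opposite share and the smaller day 0 share among the 1461 genes are therefore no separate finding. These shares rested on single arrays. Without WT day 0 replicate 1 only 15.9% arose at day 6 and 52.2% at day 0, and without R141C day 0 replicate 1 the shares were 20.2% and 39.2%. Without R141C day 6 replicate 2 they were 71.2% at day 6 and 5.56% at day 0.

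The median responses followed the sign of the difference in every class, as sorting by that sign implies. In the 301 genes that arose at day 6 with a lower R141C response, the median response was 2.02 in WT and 0.34 in R141C cells, and 214 were called in WT against 96 in R141C cells. In the 360 with a higher R141C response the medians were -0.95 in WT and 0.28 in R141C cells. The 130 genes that arose at day 0 with a higher R141C response had medians of -1.97 and -0.45. The 100 genes with a lower response had medians of 1.45 and 0.07. In the opposite class the medians were -1.40 and -0.13 for the 323 genes with a higher R141C response. For the 247 with a lower one they were 1.48 and 0.14. These genes were chosen by the difference itself, and the medians describe them without a test.

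**Figure D2:**
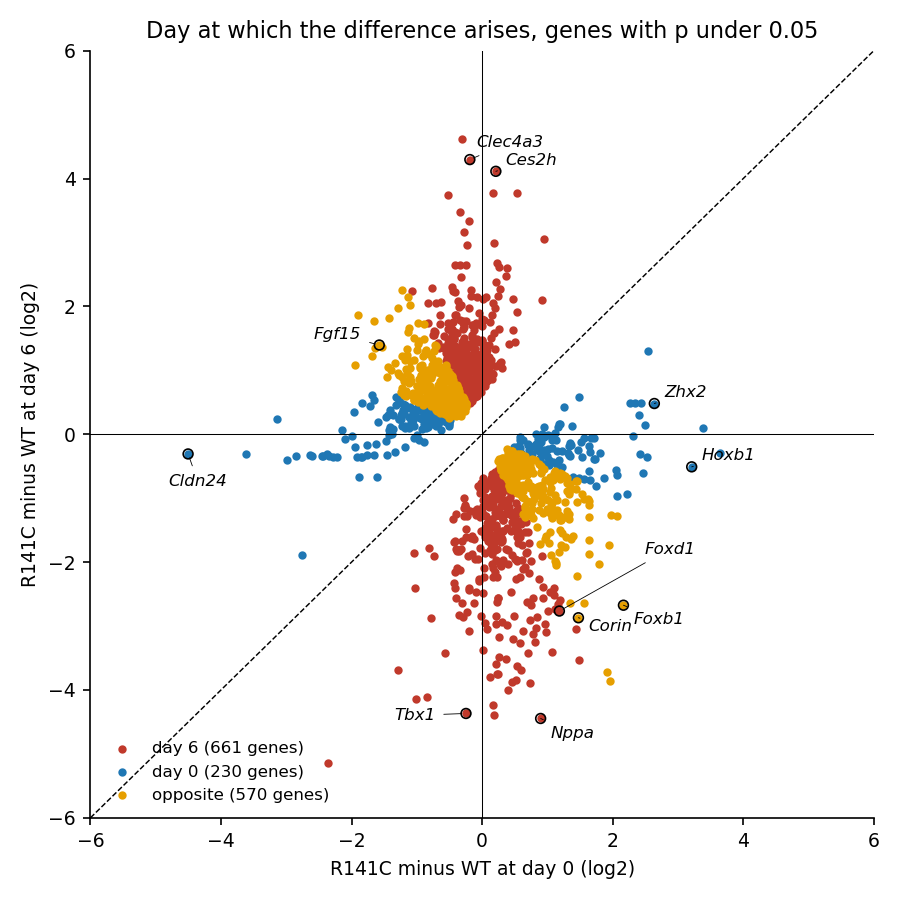
Genotype difference (R141C minus WT, log2) at day 0 on the horizontal axis and at day 6 on the vertical axis for the 1461 genes with an unadjusted p under 0.05 in the difference in response, coloured by class. Foxd1, Tbx1, Nppa and Clec4a3 are displaced mainly along the day 6 axis, Cldn24, Hoxb1 and Zhx2 along the day 0 axis, and Foxb1 and Fgf15 along both.

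Among the genes that arose at day 6 with a lower R141C response, Foxd1 had the smallest p of all tested genes. Foxd1 is a forkhead transcription factor of kidney stroma, retina and other mesenchyme. Its log2 signal was -6.37 and -6.34 in WT and -5.40 and -4.94 in R141C cells at day 0, and -1.31 and -1.48 in WT and -4.29 and -4.03 in R141C cells at day 6. The day 6 groups did not overlap, and the WT day 0 arrays were not well above background. Foxd1 rose at least 27.2-fold in WT cells (adjusted p = 0.000254, limma) and 2.02-fold in R141C cells (adjusted p = 0.0301, which was lost without R141C day 0 replicate 1, either WT day 6 array or either R141C day 6 array, with 0.136 as the largest). Its difference in response was -3.95 ± 0.32 (SE).

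The other named genes of this kind were detected at day 6 in WT cells and much less in R141C cells. Lrrc39, a component of the sarcomere M-band, had log2 signals of -4.42 and -4.22 in WT day 6 cells and was not well above background on any array of the other groups. It rose at least 4.39-fold in WT cells (adjusted p = 0.00038, limma). Sncaip, which encodes the synuclein-binding protein synphilin-1, read -5.42 and -5.15 in WT and -4.83 and -4.68 in R141C cells at day 0, and -1.42 and -1.49 in WT and -3.65 and -3.77 in R141C cells at day 6. It rose 14.2-fold in WT and 2.06-fold in R141C cells (adjusted p = 0.00032 and 0.0164; the R141C call was lost without R141C day 0 replicate 1 or R141C day 6 replicate 1, with 0.0846 as the largest). Smpd3, a neutral sphingomyelinase, rose 6.90-fold in WT cells and had a response of -0.21 in R141C cells, with signals of -0.46 and -0.78 in WT and -3.87 and -3.27 in R141C cells at day 6.

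Mfsd7a, a transporter-like gene of the major facilitator family, followed another route to a lower response. It stayed between -5.44 and -4.91 in both day 0 groups and in WT day 6 cells, and it fell to -7.43 and -7.71 in R141C day 6 cells, where it was not well above background (at least 1.32-fold lower than at day 0, adjusted p = 0.00174, limma).

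Genes that arose at day 6 with a higher R141C response were led by Ces2h, Srgn, Amn, Gria1 and Clec4a3. Srgn encodes serglycin, the granule proteoglycan of blood cells. Its log2 signal lay between -4.06 and -3.32 on all 6 arrays of the other groups and was -0.36 and -0.93 in R141C day 6 cells, a separation with no overlap. Srgn rose 8.97-fold in R141C cells (adjusted p = 0.0017, limma), and its WT response was -0.29. R141C minus WT response was 3.45 ± 0.41. Clec4a3, a C-type lectin receptor of myeloid cells, was above background on the R141C day 6 arrays alone, at -3.14 and -2.84, and rose at least 8.05-fold in R141C cells (adjusted p = 0.00135). Ces2h, a carboxylesterase, was likewise above background in R141C day 6 cells alone, at -3.11 and -3.50, and rose at least 6.48-fold (adjusted p = 0.000697). Gria1, an AMPA-type glutamate receptor subunit, rose at least 4.95-fold there (adjusted p = 0.00101).

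Amn moved in opposite directions in the 2 genotypes. It encodes amnionless, which pairs with cubilin in the vitamin B12 receptor of visceral endoderm. Its log2 signal was -0.49 and -0.86 in WT and -1.40 and -0.77 in R141C cells at day 0, and -2.52 and -2.22 in WT and 0.37 and 0.19 in R141C cells at day 6. It fell 3.23-fold in WT cells (adjusted p = 0.00783, limma; 0.0584 without WT day 6 replicate 1) and rose 2.57-fold in R141C cells (adjusted p = 0.0228, lost without R141C day 0 replicate 1 or either R141C day 6 array, with 0.103 as the largest). Its difference in response was 3.05 ± 0.40. Tmprss9, a membrane-anchored serine protease, was the other named gene called in both genotypes with opposite signs, at -1.07 in WT (lost without WT day 0 replicate 1 or WT day 6 replicate 2, with 0.143 as the largest adjusted p) and 0.95 in R141C cells. Its R141C call was lost in every fit that left out 1 array, with 0.136 as the largest adjusted p, and the sign turned to -0.33 when all probes of the gene were averaged.

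At day 6 itself 17 genes passed an adjusted p of 0.05 between the genotypes (0.0657% of tested genes), 7 higher and 10 lower in R141C cells. All 17 fell in the day 6 class, which held 47.5% of all tested genes. Choosing genes by a large day 6 difference largely sets that class, so this is no separate support. Srgn was 8.99-fold higher in R141C than in WT cells, and Foxd1, Sncaip and Smpd3 were 6.80-fold, 4.78-fold and 7.73-fold lower. Against groups not well above background, Ces2h, Clec4a3 and Gria1 were at least 3.71-fold, 4.60-fold and 2.83-fold higher, and Lrrc39 was at least 2.33-fold lower. The calls were sensitive to the arrays: 0 genes passed without R141C day 0 replicate 1, R141C day 0 replicate 2, WT day 6 replicate 1, WT day 6 replicate 2 or R141C day 6 replicate 1, 8 passed without either WT day 0 array, and 117 passed without R141C day 6 replicate 2.

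At day 0 no gene passed an adjusted p of 0.05 (0% of tested genes), and the smallest was 0.0593, that of Cldn24. By unadjusted p under 0.05 the R141C cells were higher in 594 genes (2.29%) and lower in 571 (2.21%). The genes that arose at day 0 are therefore described by their values. Cldn24, a tight junction claudin, was above background on the WT day 0 arrays alone, at -4.17 and -3.35. It fell at least 2.71-fold in WT cells (adjusted p = 0.001, limma). At day 0 it was at least 4.73-fold lower in R141C cells, where it was not well above background at either day. Necab1, S100a7l2, Tex13b and Scgb1c1 had the same pattern at lower signals, between -5.78 and -4.78 in WT day 0 cells.

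Genes that arose at day 0 with a lower R141C response have, by definition, a higher fitted day 0 signal in R141C cells. Their day 0 order is therefore no separate finding. Hoxb1, the homeobox gene of hindbrain rhombomere 4 that also marks early mesoderm and second heart field cells, read -5.95 and -7.18 in WT and -3.27 and -3.44 in R141C cells at day 0. At day 6 it read -0.07 and -0.14 in WT and -0.02 and -1.20 in R141C cells, and these groups overlapped. Hoxb1 rose 88.2-fold in WT cells (adjusted p = 0.000619, limma) and 6.69-fold in R141C cells (adjusted p = 0.0151, lost without either R141C day 0 array or R141C day 6 replicate 1, with 0.0708 as the largest). Its difference in response was -3.72 ± 0.71. Cep112, a centrosomal protein gene, rose 7.85-fold in WT and 2.76-fold in R141C cells from day 0 levels of -1.83 and -2.13 in WT and -0.88 and -0.42 in R141C cells. Zhx2, a zinc finger and homeobox repressor, was not well above background in WT day 0 cells and read -5.72 and -5.63 in R141C day 0 cells, at least 1.71-fold higher. Its fitted difference in response of -2.16 turned to 0.0588 with normexp background correction. Gjb6, a gap junction connexin, was assigned to day 0, where neither genotype was above background. Kcnv1, a modifier subunit of potassium channels, was above background in R141C day 0 cells alone, at -5.64 and -5.04, and fell at least 1.14-fold there (adjusted p = 0.00811).

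The opposite class was assigned from fitted differences of opposite sign at the 2 days. Foxb1, a forkhead factor of the early neural plate and hypothalamus, read -6.55 and -6.96 in WT and -4.85 and -4.33 in R141C cells at day 0, and -1.07 and -1.04 in WT and -4.23 and -3.22 in R141C cells at day 6. It rose at least 42.1-fold in WT cells (adjusted p = 0.000406, limma), and its R141C response of 0.86 did not pass (adjusted p = 0.175). The difference in response was -4.84 ± 0.53. Corin, the membrane protease that activates atrial natriuretic peptide, was above background on the WT day 6 arrays alone, at -3.79 and -3.59, and rose at least 6.80-fold there (adjusted p = 0.00209), so its day 0 order was not measured. Slc5a7, the choline transporter, and Shd, an SH2-domain adaptor, had differences of -1.77 ± 0.28 and -1.94 ± 0.33.

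Higher R141C responses in the opposite class included Fgf15, a fibroblast growth factor of the early neural tube and pharyngeal region. Its log2 signal was -0.52 and -0.75 in WT and -1.82 and -2.59 in R141C cells at day 0, and 0.75 and 0.28 in WT and 1.505 and 2.32 in R141C cells at day 6. Fgf15 rose 17.4-fold in R141C cells (adjusted p = 0.00166, limma), while its WT response of 1.15 did not pass (adjusted p = 0.0706). The difference in response was 2.97 ± 0.54. Zfp982, a zinc finger gene expressed in stem cells, fell 23.9-fold in WT and 7.16-fold in R141C cells, a difference of 1.74 ± 0.28. Capn5, a calpain protease, rose 4.87-fold in R141C cells and had a WT response of 0.54. Fam186b and Pfn4, a testis profilin, fell at least 1.26-fold and 5.58-fold in WT cells and had R141C responses of 0.21 and -0.76. Fam186b was not well above background at day 6, so its order there was not measured.

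Nkx2-5, the mutated gene, is measured by 1 probe on chromosome 17 (mm9, 26975621 to 26975680, minus strand), which does not distinguish the alleles. Its log2 signal was -1.27 and -2.02 in WT and 1.84 and -0.77 in R141C cells at day 0, and 1.93 and 1.79 in WT and 1.53 and 1.58 in R141C cells at day 6. The day 6 levels lay between 1.53 and 1.93, and the R141C day 0 arrays lay far apart. Nkx2-5 rose 11.3-fold in WT cells (adjusted p = 0.0192, limma; lost without WT day 0 replicate 2 or either WT day 6 array, with 0.0902 as the largest), and its R141C response of 1.02 did not pass (adjusted p = 0.413). The difference in response was -2.48 ± 1.08 with an adjusted p of 0.883, and most of it was the day 0 difference of 2.18.

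The cardiac transcription factors, 35 of which were tested, had a median difference in response of -1.14, with 27 lower and 8 higher in R141C cells. Unadjusted p was under 0.05 for 14, all lower, where 2.50% of tested genes were lower at that threshold. Leaving out 1 array gave 9 (without WT day 0 replicate 2) to 16. Many rose in both genotypes: 25 were called higher at day 6 in WT and 17 in R141C cells, and none lower, with 17 in WT without WT day 6 replicate 2 and 11 in R141C without R141C day 0 replicate 1. Of all tested genes, 11.0% were called higher at day 6 in WT and 7.60% in R141C cells, and 12.9% and 8.04% lower. These shares stand beside the counts of calls in this list and in those below. The centred list median, in which each gene is set to its mean over the 8 arrays, was -1.03 and -2.37 in WT and -0.9985 and -1.28 in R141C cells at day 0, and 1.47 and 1.65 in WT and 0.57 and 1.01 in R141C cells at day 6. The day 6 groups did not overlap, and the median genotype difference was -0.44 at day 6 (-0.85 without R141C day 6 replicate 2) and 0.32 at day 0. The day 0 median was 0.07 without WT day 0 replicate 2 and 0.66 when replicate 1 of that group was left out.

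Among these factors the T-box and Iroquois genes had the largest differences. Tbx1, a T-box factor of the second heart field and pharynx, read -2.34 and -3.72 in WT and -3.28 and -3.27 in R141C cells at day 0, and 2.84 and 2.43 in WT and -2.24 and -1.22 in R141C cells at day 6. It rose 50.7-fold in WT cells (adjusted p = 0.000995, limma), its R141C response of 1.54 did not pass (adjusted p = 0.092), and the difference was -4.12 ± 0.72. Tbx5, a T-box factor of the first heart field and atria, rose at least 143-fold in WT and at least 12.3-fold in R141C cells (adjusted p = 0.000993 and 0.0106, the second 0.0668 without R141C day 0 replicate 1), to 0.98 and 0.67 in WT and -3.45 and -1.30 in R141C cells. Irx1, an Iroquois homeobox gene, rose 106-fold in WT cells to 3.99 and 3.77, and read -0.21 and 1.87 in R141C day 6 cells. Irx2 rose 9.56-fold in WT cells (adjusted p = 0.0291, lost without either WT day 6 array, with 0.121 as the largest) and had an R141C response of -0.81.

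Other early heart regulators had small differences, and these genes were chosen after their values were seen. Gata4, a zinc finger partner of Nkx2-5, had a difference in response of -0.53 ± 0.51. Mesp1, the factor of the first cardiac mesoderm, had 0.09 ± 0.66, and its responses were 6.998 in WT and 7.08 in R141C cells. Hand1 had 0.41 ± 0.58 and Tbx20 had -0.29 ± 0.68. Their intervals are wide, so the values do not show equal responses.

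Sarcomere genes had the lowest list median of the 32 lists. Over 28 tested genes the median difference in response was -2.56, with 25 lower and 3 higher in R141C cells, and 9 had an unadjusted p under 0.05, all lower, beside 2.50% of tested genes. At day 6, 15 were called higher than at day 0 in WT and 4 in R141C cells, beside 11.0% and 7.60% of tested genes. The centred median was -1.23 and -1.73 in WT and -0.90 and -0.56 in R141C cells at day 0, 2.19 and 2.38 in WT day 6 cells, and -0.69 and 1.01 in R141C day 6 cells. R141C day 6 replicate 1 thus lay near the day 0 level while replicate 2 lay between the days. Without R141C day 6 replicate 1 the median difference was -1.28 and R141C calls rose in number to 13, and without R141C day 6 replicate 2 it was -3.87 with 21 genes under the unadjusted threshold. WT calls fell in number to 7 without WT day 6 replicate 2, which also left 1 gene under the unadjusted threshold, and to 8 without WT day 6 replicate 1. R141C calls fell in number to 0 without either R141C day 0 array.

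The named sarcomere genes show the same spread. Actc1, cardiac alpha-actin, read 1.48 and 1.04 in WT and 1.81 and 4.62 in R141C cells at day 0, and 6.83 and 7.15 in WT and 0.89 and 5.35 in R141C cells at day 6. It rose 53.1-fold in WT cells (adjusted p = 0.0322, limma; lost without either WT day 0 or either WT day 6 array, with 0.138 as the largest), and the difference in response was -5.82 ± 2.06. Tcap, the titin cap of the Z-disc, read -4.27 and -4.47 in WT and -3.48 and -3.88 in R141C cells at day 0, and 0.15 and 0.04 in WT and -3.19 and -1.85 in R141C cells at day 6. Tcap rose 22.1-fold in WT cells (adjusted p = 0.00111), and its R141C response of 1.16 did not pass (adjusted p = 0.116). Myh6, the alpha myosin heavy chain, was 5.37 and 5.62 in WT and -0.04 and 3.25 in R141C cells at day 6, and its WT response of 3.37 did not pass (adjusted p = 0.069).

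Calcium handling and cardiac membrane genes had a median difference of -1.07 over 23 tested genes, 19 lower and 4 higher, with 8 lower and 1 higher under the unadjusted threshold, beside 2.50% and 3.14% of tested genes. The 8 became 5 without WT day 6 replicate 1. Leaving out R141C day 6 replicate 1 brought the median to -0.62 and leaving out replicate 2 brought it to -1.56 with 12 lower. In WT cells 10 were called higher at day 6 and in R141C cells 6, with 6 in WT without WT day 6 replicate 2 and 2 in R141C without R141C day 0 replicate 1 or either WT day 6 array. Of these 23 genes, 18 fell in the day 6 class and 1 in the day 0 class, against 47.5% and 34.0% of tested genes. The genes of this list carry the pacemaker current, the calcium current and the natriuretic peptides.

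Nppa, atrial natriuretic peptide and a known Nkx2-5 target, read -2.94 and -4.10 in WT and -3.79 and -1.46 in R141C cells at day 0, and 1.09 and 1.33 in WT and -4.27 and -2.21 in R141C cells at day 6. It rose 26.5-fold in WT cells (adjusted p = 0.0133, limma; lost without WT day 0 replicate 2 or either WT day 6 array, with 0.0766 as the largest), and its R141C response was -0.61. The difference in response was -5.34 ± 1.31. Cacna1c, the L-type calcium channel, rose at least 39.6-fold in WT and at least 5.07-fold in R141C cells (adjusted p = 0.0019 and 0.0327, the second lost without R141C day 0 replicate 1, either WT day 6 array or R141C day 6 replicate 2, with 0.153 as the largest). Nppb, brain natriuretic peptide, had responses of 1.75 and -1.89, neither called, and a difference of -3.64 ± 1.11.

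The promoters of heart genes were searched for the core of the site Nkx2-5 binds, TNAAGTG, on both strands (CACTTNA on the opposite strand), because the mutation lies in the domain that reads it. The search covered 250 bases before the RefSeq start site on GRCm38.p6. Of 86 tested heart genes on the 3 lists, 61 had a promoter sequence and 4 of these (6.56%) held the letters, against 9.60% of tested genes with a promoter and 10.1% of all 32851 promoters, so the share among heart genes was not above that of other genes. Stretches of 60 bases around each match are shown 5′ to 3′ on the strand of the gene with the match in capitals, for Nppa (chr4:148000472-148000531, plus strand), Smyd1 (chr6:71262472-71262531, minus strand), Csrp3 (chr7:48848242-48848301, minus strand) and Myh7 (chr14:54994770-54994829, minus strand).
Nppa: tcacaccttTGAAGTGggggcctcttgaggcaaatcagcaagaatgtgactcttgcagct
Smyd1: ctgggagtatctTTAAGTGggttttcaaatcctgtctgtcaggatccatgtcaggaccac
Csrp3: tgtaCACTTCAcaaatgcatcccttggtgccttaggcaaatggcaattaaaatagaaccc
Myh7: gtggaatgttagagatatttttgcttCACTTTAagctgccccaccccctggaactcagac
The match began 241 bases before the start of Nppa, 238 before Smyd1, 246 before Csrp3 and 177 before Myh7. The differences in response of these genes were -5.34 for Nppa, -4.31 for Csrp3, a muscle LIM protein, -2.93 for Myh7, the beta myosin heavy chain, and 0.01 for Smyd1, a muscle histone methyltransferase. A match is a description of letters, not a bound site.

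**Figure D3:**
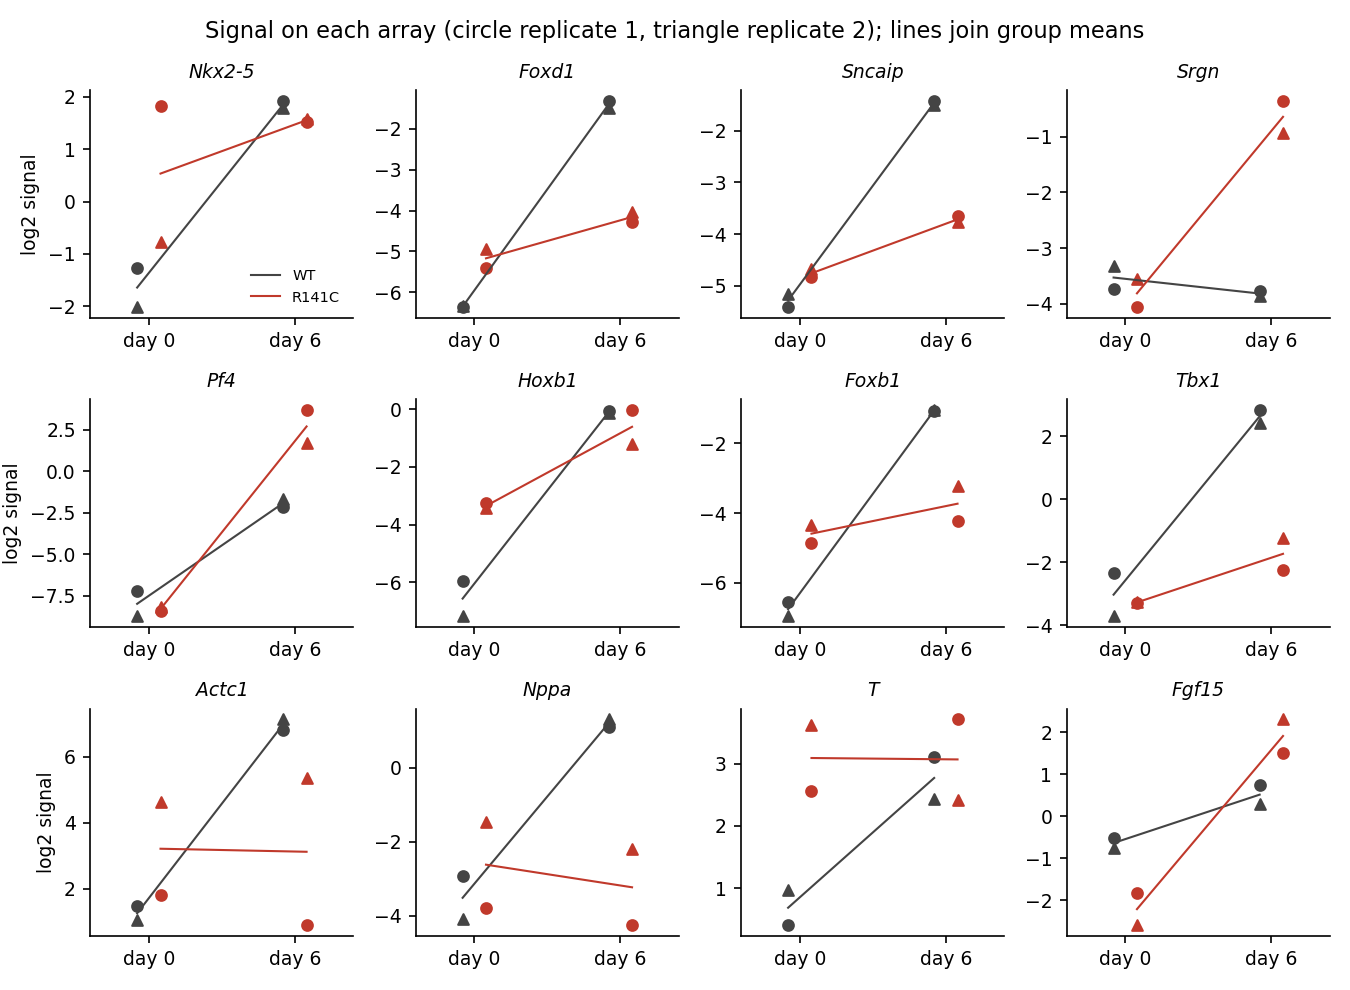
Log2 signal (relative to the 75th percentile of the array) on each of the 8 arrays for 12 named genes, WT in black and R141C in red, with lines through the group means. The WT day 6 arrays lie above the R141C day 6 arrays for Tbx1, Nppa and Foxd1, and the R141C day 6 arrays above WT for Srgn and Pf4.

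Smooth muscle genes were higher at day 0 and lower at day 6 in R141C cells by the list median. All 11 tested genes had a negative difference, with a median of -1.77 that ranged from -2.43 without WT day 0 replicate 1 to -0.76 without R141C day 6 replicate 1, and 4 fell in the day 0 class and 7 in the opposite class. The median genotype difference was 1.04 at day 0 and -0.86 at day 6. The day 0 value ran from 0.27 without WT day 0 replicate 2 to 1.87 without R141C day 0 replicate 1, and the day 6 value was -0.16 when R141C day 6 replicate 1 was left out. Cnn1, calponin, read 5.11 and 3.78 in WT and 4.82 and 6.16 in R141C cells at day 0, and 4.27 and 4.66 in WT and 3.08 and 2.80 in R141C cells at day 6. Its response was 0.02 in WT cells, and it fell 5.84-fold in R141C cells (adjusted p = 0.0275, limma; lost without R141C day 0 replicate 2, either WT day 6 array or either R141C day 6 array, with 0.102 as the largest). Tagln, transgelin, had responses of 0.19 and -2.28, neither called, with 4.90 on WT day 0 replicate 2 and 6.99 to 8.10 on the other day 0 arrays.

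Epicardial and mesothelial genes had a median difference of -1.28 over 12 tested genes, 11 lower, with -0.64 without WT day 0 replicate 2 and -1.88 without R141C day 6 replicate 2. The median genotype difference was 0.53 at day 0, where all 12 were higher in R141C cells. At day 6 it was -0.43, with 10 lower and 2 higher. The day 0 median was 0.26 without WT day 0 replicate 2, and the day 6 median was -0.02 without R141C day 6 replicate 1. The day 6, day 0 and opposite classes held 4 genes each. Tcf21, a bHLH factor of epicardium and splanchnic mesoderm, rose 37.8-fold in WT and at least 8.29-fold in R141C cells (adjusted p = 0.000399 and 0.00192, limma), to -1.15 and -1.41 in WT and -3.01 and -2.89 in R141C cells. Bnc1, a zinc finger gene of mesothelium, rose at least 53.2-fold and at least 24.1-fold, and its difference of -2.18 ± 0.68 was assigned to day 0, where neither genotype was above background. Msln, mesothelin, fell where these genes rose, 14.8-fold in WT and 56.4-fold in R141C cells (adjusted p = 0.00305 and 0.00137, limma). Its R141C response was thus also the lower one. Aldh1a2, which makes retinoic acid in this tissue, rose 5.44-fold in WT cells (adjusted p = 0.0142, lost without WT day 0 replicate 2 or either WT day 6 array, with 0.0846 as the largest) and had an R141C response of -0.46.

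Collagen and matrix genes had a median difference of -1.16 over 32 tested genes, 26 lower and 6 higher. The median ranged from -1.68 without R141C day 0 replicate 1 to -0.50 without WT day 0 replicate 2. The median genotype difference was 0.56 at day 0, with 24 higher and 8 lower in R141C cells. At day 6 it was -0.38, with 24 lower and 8 higher. The day 0 median was 0.06 without R141C day 0 replicate 2, and the day 6 median was -0.02 without R141C day 6 replicate 1. Of the 32 genes, 14 were assigned to day 0, 10 to day 6 and 8 to the opposite class. In WT cells 13 were called higher at day 6 and in R141C cells 6, with 5 in WT without WT day 6 replicate 2 and 3 in R141C without R141C day 0 replicate 1. Col14a1, a fibril-associated collagen, rose 14.9-fold in WT cells (adjusted p = 0.00193, limma), to -1.995 and -1.81, and read -3.87 and -3.86 in R141C day 6 cells. Fbn1, fibrillin, rose 6.65-fold in WT cells (adjusted p = 0.00836, 0.0539 without WT day 6 replicate 2), and its R141C response of 1.03 did not pass (adjusted p = 0.189).

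**Figure D4:**
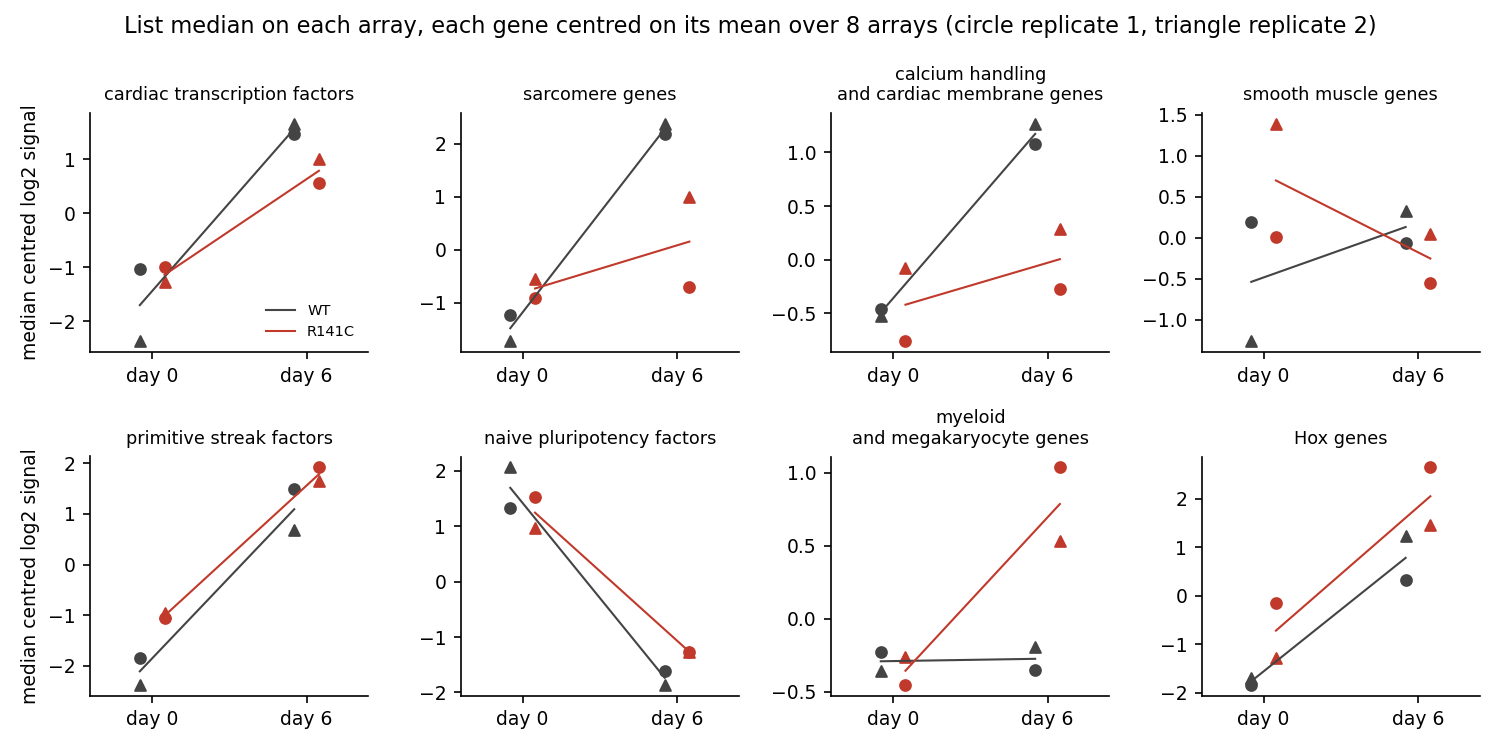
Median of each list on each array, with every gene centred on its mean over the 8 arrays, WT in black, R141C in red, and lines through the group means. The R141C day 6 arrays lie below WT for cardiac transcription factors, sarcomere genes and calcium handling genes, and above WT for myeloid and megakaryocyte genes and Hox genes.

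Primitive streak factors had their larger genotype difference before differentiation. Over 17 tested genes the median difference in response was -1.10, with 15 lower, and the median genotype difference was 1.07 at day 0 and -0.25 at day 6. The day 0 median was 0.66 without R141C day 0 replicate 2, and the day 6 median turned to 0.11 when R141C day 6 replicate 2 was left out. At day 0, 8 had an unadjusted p under 0.05 and were higher in R141C cells (4 without R141C day 0 replicate 2), beside 2.29% of tested genes. The centred median was -1.84 and -2.38 in WT and -1.06 and -0.97 in R141C cells at day 0, without overlap, and it ran from 0.69 to 1.92 over the 4 day 6 arrays, where both R141C arrays lay highest. In WT cells 12 were called higher at day 6 and in R141C cells 10, with 9 in WT without WT day 6 replicate 1 and 5 in R141C without R141C day 0 replicate 1. The median difference was -0.68 without WT day 0 replicate 2 and -1.83 without WT day 0 replicate 1.

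The streak genes fell into separate days of origin. T, brachyury, the defining T-box factor of the streak, read 0.40 and 0.97 in WT and 2.56 and 3.63 in R141C cells at day 0, and between 2.42 and 3.72 on the 4 day 6 arrays. T rose 4.25-fold in WT cells (adjusted p = 0.0354, limma; lost without any 1 of the 4 WT arrays, with 0.171 as the largest), its R141C response was -0.02, and the difference was -2.11 ± 0.77. Sp5, a Wnt target transcription factor, read 2.73 and 2.17 in WT and 3.98 and 5.03 in R141C cells at day 0, with a difference of -2.60 ± 0.76. Lhx1, a LIM homeobox factor of the anterior streak and organizer, rose 136-fold in WT and 26.3-fold in R141C cells (adjusted p = 0.00032 and 0.00111). Pdgfra, the receptor that marks paraxial and cardiac mesoderm, rose 225-fold and 64.9-fold (adjusted p = 0.000254 and 0.000697), and its difference of -1.80 ± 0.51 arose at day 6.

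Wnt pathway genes also had their larger genotype difference at day 0. The median difference over 34 tested genes was -0.64, with 27 lower and 7 higher, and the median genotype difference was 0.92 at day 0 and 0.02 at day 6. Without WT day 0 replicate 1 the median difference was -1.05, without R141C day 0 replicate 2 the day 0 median was 0.55, and the day 6 median reached 0.22 when R141C day 6 replicate 1 was left out. At day 0, 10 were higher in R141C cells and 1 lower at an unadjusted p under 0.05, beside 2.29% and 2.21% of tested genes. The 10 became 6 without R141C day 0 replicate 2. Of the 34, 19 were assigned to day 0, beside 34.0% of tested genes. Dkk1, a secreted Wnt antagonist, read -3.56 and -4.62 in WT and -1.24 and -2.07 in R141C cells at day 0, and 2.20 to 2.72 on the 4 day 6 arrays. Dkk1 rose 78.6-fold in WT and 20.3-fold in R141C cells (adjusted p = 0.000399 and 0.00174, limma). Fzd2, a Wnt receptor, rose 3.60-fold in WT cells (adjusted p = 0.0187, lost without WT day 0 replicate 2 or either WT day 6 array, with 0.0978 as the largest) and had an R141C response of -0.21. Wnt2, a ligand made in cardiac and vascular mesoderm, instead arose at day 6, where it read 0.00 and 0.19 in WT and -2.74 and -2.01 in R141C cells. It rose at least 93.5-fold in WT and at least 12.3-fold in R141C cells (adjusted p = 0.000248 and 0.000495).

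Retinoic acid genes had a median difference of -0.75 over 19 tested genes, with 12 lower and 7 higher. Stra6, the receptor that takes up vitamin A from its carrier, rose 6.37-fold in WT cells (adjusted p = 0.0101, limma; lost without either WT day 6 array, with 0.0591 as the largest), from -4.26 and -5.03 to -1.92 and -2.04. It read -4.77 and -3.35 in R141C day 6 cells and had an R141C response of -0.07. Rarg, a retinoic acid receptor, fell 5.23-fold in WT cells (adjusted p = 0.00203), and its R141C response of -0.96 did not pass (adjusted p = 0.0576). Rdh10, which makes retinaldehyde, had responses of 0.98 and -0.99, neither called.

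Hox genes were higher by the list median in R141C cells at both days. The median genotype difference over 37 tested genes was 0.85 at day 0 and 1.51 at day 6, with 11 higher and 0 lower at day 0 and 17 higher and 2 lower at day 6 at an unadjusted p under 0.05. For all tested genes the shares higher were 2.29% at day 0 and 5.15% at day 6, and 3.39% were lower at day 6. The day 0 median was 0.35, with 5 genes higher, when R141C day 0 replicate 1 was left out, and 1.45 when replicate 2 of that group was. The day 6 median was 1.03 and the count of higher genes 3 without R141C day 6 replicate 1, and that count was 4 without WT day 6 replicate 1. The median difference in response was 0.43, and it ran from -0.11 without R141C day 6 replicate 1 to 0.91 without R141C day 0 replicate 1. In WT cells 21 were called higher at day 6 and in R141C cells 19, with 13 in WT without WT day 6 replicate 2 and 9 in R141C without R141C day 0 replicate 2 or R141C day 6 replicate 1. The centred median was -1.84 and -1.69 in WT and -0.15 and -1.29 in R141C cells at day 0, and 0.33 and 1.24 in WT and 2.65 and 1.46 in R141C cells at day 6.

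The Hox genes were also grouped by position along the cluster, an order looked at after the values were seen. Of 12 tested genes of paralog groups 1 to 4, those expressed most anteriorly in the embryo, 9 had a lower R141C response, with a median of -1.98. Their median WT response was 4.36 and their median R141C response 2.98. All 11 genes of groups 10 to 13, the most posterior, had a higher R141C response, with a median of 2.10, and 10 or 11 of the 11 were higher in each fit that left out 1 array. Their medians were 0.74 in WT and 2.66 in R141C cells, and 1 and 2 of them were called higher at day 6. Of all 37 tested Hox genes, 37 and 36 were above background in R141C day 6 cells and 27 and 32 in WT day 6 cells. At day 0 the counts were 29 and 23 in WT and 33 and 25 in R141C cells. Genes detected in R141C day 6 cells alone enter through that group, so the filter may partly set the shared direction. Detection was not counted by paralog group. Of 14 genes of groups 5 to 9, between these, 9 had a higher and 5 a lower R141C response, with a median of 0.62 that turned to -0.13 without R141C day 6 replicate 1. For groups 1 to 4 the median ranged from -2.97 without WT day 0 replicate 1 to -0.77 without WT day 0 replicate 2, and for groups 10 to 13 from 0.82 without R141C day 0 replicate 2 to 2.85 without R141C day 6 replicate 2. Hoxa2 rose 23.5-fold in WT cells (adjusted p = 0.00556, limma), with an R141C response of 0.73, and Hoxc13 fell at least 6.42-fold in WT cells (adjusted p = 0.00191), with an R141C response of -0.99.

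Naive pluripotency factors were detected on every array, as the label of stem cells requires at day 0, and their decrease was the smaller in R141C cells by the list median. The median difference in response over 22 genes was 0.79, with 21 higher and 1 lower, and 7 had an unadjusted p under 0.05, all higher, where 3.14% of tested genes were higher at that threshold. This count was 0 without R141C day 0 replicate 2 and 10 without R141C day 0 replicate 1. In WT cells 18 were called lower at day 6 and in R141C cells 17, with 12 in R141C without R141C day 0 replicate 1. The median was 0.52 without R141C day 0 replicate 2. The median genotype difference was -0.68 at day 0 (-0.37 without WT day 0 replicate 2) and 0.33 at day 6. The centred median was 1.32 and 2.06 in WT and 1.53 and 0.96 in R141C cells at day 0, where the groups overlapped, and -1.61 and -1.86 in WT and -1.26 and -1.27 in R141C cells at day 6.

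Dppa4, a chromatin-associated embryo gene, read 3.32 and 3.20 in WT and 2.97 and 2.76 in R141C cells at day 0, and -0.68 and -0.96 in WT and 0.05 and -0.43 in R141C cells at day 6. It fell 16.9-fold in WT and 8.33-fold in R141C cells (adjusted p = 0.000368 and 0.0011, limma). Sox2, the HMG-box partner of Oct4, fell 9.02-fold in WT and 3.60-fold in R141C cells (adjusted p = 0.00181 and 0.0165, the second lost without R141C day 0 replicate 1 or R141C day 6 replicate 2, with 0.0889 as the largest). Tbx3, a T-box factor of naive cells and also of the conduction system, had a WT response of -0.35 and rose 5.82-fold in R141C cells (adjusted p = 0.0471, kept in 2 of the 8 fits that left out 1 array, those without a WT day 0 array, with 0.181 as the largest). Prdm14, a germline and pluripotency factor, had responses of -2.93 and 0.36, neither called.

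Germ cell genes, many of which are also expressed in stem cells, had a median difference of 0.64 over 21 tested genes, with 18 higher and 3 lower. It was 0.32 without R141C day 0 replicate 2 and 1.06 when replicate 1 of that group was left out. The median genotype difference was -0.50 at day 0, with 18 lower and 3 higher in R141C cells, and 0.27 at day 6. At day 0, 6 were lower and 0 higher at an unadjusted p under 0.05, beside 2.21% and 2.29% of tested genes. The day 0 median was -0.33 without R141C day 0 replicate 2, and the day 6 median was -0.06 without R141C day 6 replicate 1. In WT cells 15 were called lower at day 6 and in R141C cells 13, with 10 in WT without WT day 6 replicate 2 and 7 in R141C without R141C day 0 replicate 1. Ddx4, the germline RNA helicase Vasa, read 1.45 and 1.19 in WT and 0.99 and 1.01 in R141C cells at day 0 and fell 14.4-fold in WT and 4.91-fold in R141C cells (adjusted p = 0.001 and 0.00831, limma). Piwil2, a piRNA-binding protein, fell at least 16.2-fold in WT and 5.78-fold in R141C cells (adjusted p = 0.00138 and 0.0158, the second lost without R141C day 0 replicate 1 or R141C day 6 replicate 1, with 0.0895 as the largest). Hormad1, a meiotic chromosome protein, fell at least 9.21-fold and 10.3-fold (adjusted p = 0.00102 and 0.00773, the second 0.0525 without R141C day 0 replicate 1).

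All 19 tested myeloid and megakaryocyte genes had a higher R141C response. Of these, 19 and 18 were above background on the R141C day 6 arrays, 17 and 15 in WT day 6 cells and 15 on each day 0 array. A gene such as Clec4a3, above background in R141C day 6 cells alone, was tested only through that group. The shared direction was therefore partly set by the filter. The median difference was 0.72, between 0.58 and 1.098 over the fits that left out 1 array, and 6 genes had an unadjusted p under 0.05, all higher, beside 3.14% of tested genes. The median was highest without WT day 6 replicate 2. In R141C cells 8 were called higher at day 6 and in WT cells 4, beside 7.60% and 11.0% of tested genes. The centred median lay between -0.45 and -0.19 on the 6 arrays of the other groups and was 1.04 and 0.53 in R141C day 6 cells. Of the 19 genes, 15 were assigned to day 6 and 1 to day 0, beside 47.5% and 34.0% of tested genes. Pf4, the chemokine of megakaryocytes and platelets, was not well above background at day 0 and reached -2.13 and -1.67 in WT and 3.71 and 1.71 in R141C cells at day 6. Pf4 rose at least 23.4-fold in WT and at least 418-fold in R141C cells (adjusted p = 0.00243 and 0.000726, limma), a difference of 4.92 ± 1.02. Cd52, a surface peptide of leukocytes, rose 6.26-fold in R141C cells (adjusted p = 0.00823) and had a WT response of 0.28.

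Blood and globin genes had a median difference near that of all genes. Over 23 tested genes it was 0.12, with 12 higher and 11 lower, and 18 were called higher at day 6 in each genotype, with 13 in WT without WT day 6 replicate 2. It ranged from -0.67 without WT day 6 replicate 1 to 0.42 without R141C day 6 replicate 2. Hbb-b2, an adult beta-globin, rose at least 538-fold in WT and at least 114-fold in R141C cells (adjusted p = 0.000361 and 0.00081, limma). Its close copy Hbb-b1 rose at least 150-fold and at least 29.5-fold, and probes for these paralogs may share signal. Ahsp, the alpha-globin chaperone, rose at least 137-fold and at least 21.6-fold, with a difference of -1.74 ± 0.88.

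Endothelial genes had a median difference of 0.27 over 21 tested genes. At day 6, 15 were called higher in WT and 14 in R141C cells, beside 11.0% and 7.60% of tested genes. Without WT day 6 replicate 2 the WT count was 9, and without WT day 0 replicate 1 the median turned to -0.07. It was 0.57 when R141C day 6 replicate 2 was left out. Eng, endoglin, a TGF-beta co-receptor, fell 2.47-fold in WT cells (adjusted p = 0.0238, limma; lost without any 1 of the 4 WT arrays, with 0.143 as the largest) and had an R141C response of 0.05. Sox7, an endothelial and endodermal transcription factor, rose 27.5-fold in R141C cells (adjusted p = 0.00707), and its WT rise of 5.70-fold (adjusted p = 0.0415) was lost without any 1 of the WT arrays or R141C day 0 arrays, with 0.165 as the largest. Erg, an ETS factor of endothelium, was not well above background at day 0 and reached -3.18 and -2.94 in WT and -1.45 and -3.14 in R141C cells at day 6.

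Markers of cells other than heart muscle were summed on each day 6 array, and their part in the heart results was not tested. The sums overlapped between the genotypes for blood and visceral endoderm genes. They did not overlap for myeloid, endothelial, neural or smooth muscle genes, and not every list is given here. The log2 of the summed signal of the 23 blood and globin genes lay between 9.13 and 10.1 in WT and between 8.64 and 9.63 in R141C cells at day 6, with all 23 above background on each day 6 array. For the 19 myeloid genes it was 3.01 and 3.02 in WT and 3.80 and 4.83 in R141C cells, with 15 and 17 above background in WT and 18 and 19 in R141C cells. For 23 visceral endoderm genes it was 7.42 and 7.81 in WT and 7.60 and 8.58 in R141C cells at day 6. For 21 endothelial genes it was 6.69 and 6.86 in WT and 7.51 and 6.88 in R141C cells. For 23 neural progenitor and neuron genes it was 5.83 and 5.65 in WT and 4.84 and 5.15 in R141C cells. For 11 smooth muscle genes it was 7.28 and 7.87 in WT and 6.43 and 7.19 in R141C cells. For 28 sarcomere genes it was 9.02 and 9.42 in WT and 6.35 and 8.15 in R141C cells.

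Visceral endoderm genes had a median difference of 0.61 over 23 tested genes, with 16 higher and 7 lower, beside 15014 and 10878 of all tested genes. In WT cells 14 were called higher at day 6 and in R141C cells 16, beside 11.0% and 7.60% of tested genes. That median was 0.21 in the fit without R141C day 6 replicate 2, and 0.93 with replicate 1 of that group left out. Apoc2, an apolipoprotein that activates lipoprotein lipase, read -3.05 and -3.68 in WT and -3.86 and -4.13 in R141C cells at day 0, and 0.37 and 0.95 in WT and 2.12 and 3.34 in R141C cells at day 6. Apoc2 rose 16.3-fold in WT and 106-fold in R141C cells (adjusted p = 0.00193 and 0.000745, limma), a difference of 2.70 ± 0.63. Spink1, a secreted protease inhibitor, rose 8.36-fold and 23.5-fold (adjusted p = 0.00607 and 0.00241). Trf, transferrin, fell 7.30-fold in WT cells (adjusted p = 0.00579) and had an R141C response of -1.39. Definitive endoderm transcription factors had a median difference of -0.75 over 14 tested genes, with 13 called higher at day 6 in WT and 10 in R141C cells, and 7 in WT without either WT day 6 array. The median was -0.21 without WT day 0 replicate 2 and -1.15 when replicate 1 of that group was left out.

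FGF pathway genes had a median difference of 0.31 over 23 tested genes, and 5 had an unadjusted p under 0.05, all higher, beside 3.14% of tested genes. That count was 2 without WT day 0 replicate 2 or WT day 6 replicate 1 and 8 without WT day 0 replicate 1, and the median was 0.06 without WT day 6 replicate 2. Fgf3, a ligand of the otic and tail regions, rose 12.8-fold in WT and 94.7-fold in R141C cells (adjusted p = 0.00348 and 0.000941, limma), to -0.43 and -0.55 in WT and 1.40 and 1.74 in R141C cells. Etv5, an ETS factor induced by FGF, fell 3.33-fold in WT cells (adjusted p = 0.00192), and in R141C cells it fell 1.89-fold (adjusted p = 0.024, kept without either WT day 0 array and lost without any 1 of the other 6, with 0.113 as the largest). Spry4, an FGF feedback inhibitor, fell 7.29-fold in WT cells (adjusted p = 0.00728) and had an R141C response of -1.17. Notch pathway genes had a median difference of -0.28 over 20 tested genes, and 5 had an unadjusted p under 0.05, all lower, beside 2.50% of tested genes. The count was 2 without WT day 0 replicate 2, R141C day 0 replicate 2 or either WT day 6 array. The median turned to 0.00685 without R141C day 0 replicate 2 and was -0.73 when replicate 1 of that group was left out. Heyl, a Notch target of vascular smooth muscle, rose at least 7.11-fold in WT cells (adjusted p = 0.00165), and its R141C response of 1.11 did not pass (adjusted p = 0.0648). Hes5, another Notch target, rose 3.59-fold in WT cells (adjusted p = 0.0108, lost without WT day 0 replicate 2 or WT day 6 replicate 1, with 0.0723 as the largest) and had an R141C response of 0.08.

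Neural progenitor and neuron genes had a median difference of -0.40 over 23 tested genes, with 14 lower and 9 higher, and it was -0.17 without R141C day 0 replicate 1. In WT cells 8 were called lower at day 6 (4 without WT day 6 replicate 1 and 5 without WT day 0 replicate 1 or WT day 6 replicate 2) and in R141C cells 9. Tubb3, the neuronal beta-tubulin, read 1.96 and 2.25 in WT and 0.13 and 0.48 in R141C cells at day 6. It fell 7.17-fold in R141C cells (adjusted p = 0.00302, limma), and its WT fall of 2.57-fold (adjusted p = 0.0238) was lost without WT day 0 replicate 1 or either WT day 6 array, with 0.132 as the largest. Nes, the intermediate filament of neural progenitors, had a WT response of -0.69 and fell 5.61-fold in R141C cells (adjusted p = 0.0137, lost without either R141C day 0 array or R141C day 6 replicate 2, with 0.0655 as the largest).

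Interferon response genes were higher by the list median in R141C cells at both days. The median genotype difference over 25 tested genes was 0.42 at day 0 and 1.36 at day 6, with 7 and 13 higher and none lower at an unadjusted p under 0.05, beside 2.29% and 5.15% of tested genes that were higher. The 7 became 2 without R141C day 0 replicate 2, and the day 0 median was 0.76 when WT day 0 replicate 1 was left out. The median difference in response was 0.73, with 20 higher and 5 lower, and it ranged from 0.27 without R141C day 6 replicate 1 to 0.82 without R141C day 0 replicate 2. Irf7, the interferon-induced regulator, was above background on the R141C day 6 arrays alone, at -4.76 and -5.12, where its R141C response of 1.11 did not pass (adjusted p = 0.0687, limma). Its difference in response was the only one in the list with an unadjusted p under 0.05, against 6 without R141C day 6 replicate 2.

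**Figure D5:**
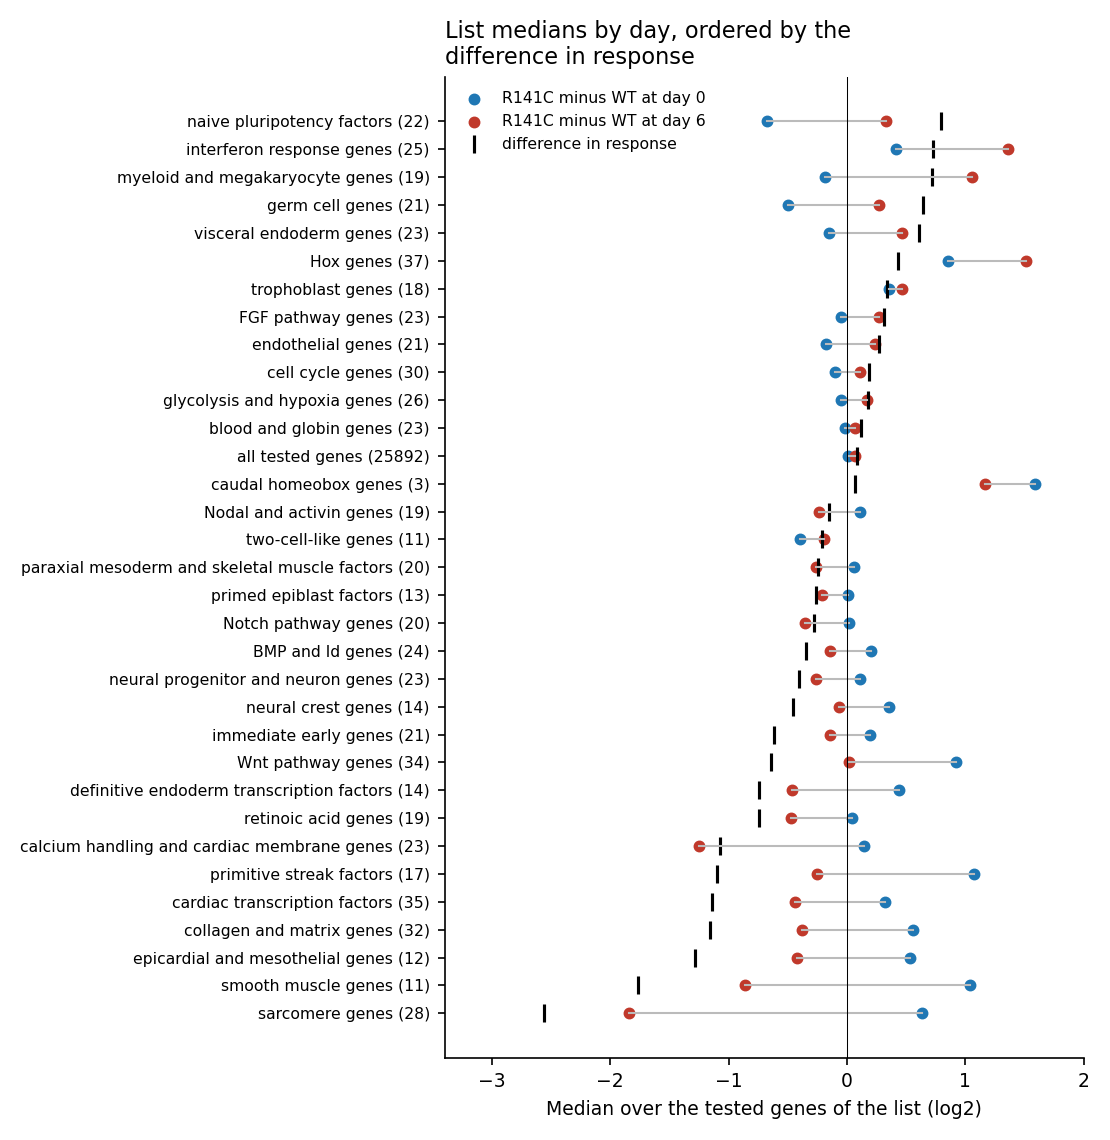
Median over the tested genes of each list of the genotype difference (R141C minus WT, log2) at day 0 in blue and day 6 in red, with a black tick for the median difference in response; the number of tested genes is in parentheses. Sarcomere genes have the lowest tick at -2.56 and naive pluripotency factors the highest at 0.79, while Hox and interferon genes lie above 0 at both days.

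The remaining lists had medians between -0.61 and 0.34. The median difference in response was 0.18 for 30 cell cycle genes, 0.18 for 26 glycolysis and hypoxia genes, -0.15 for 19 Nodal and activin genes, -0.24 for 20 paraxial mesoderm and skeletal muscle factors and -0.26 for 13 primed epiblast factors. It was -0.35 for 24 BMP and Id genes, -0.46 for 14 neural crest genes, -0.61 for 21 immediate early genes, 0.34 for 18 trophoblast genes, -0.21 for 11 genes of the 2-cell-like state and 0.06 for 3 caudal homeobox genes. The 2-cell-like median ran from -1.45 without WT day 0 replicate 1 to 1.54 without WT day 0 replicate 2, and the trophoblast median from -0.41 to 0.83 over the same fits. Normexp turned the 2-cell-like median to 0.42. The caudal median turned to -0.04 with the median shift and ran from -0.45 without WT day 0 replicate 1 to 0.56 without R141C day 6 replicate 2. Leaving out 1 array moved the cell cycle median between 0.03 and 0.41 (R141C day 0 replicates 2 and 1), the glycolysis median between -0.02 and 0.32 (WT day 0 replicate 2 and R141C day 6 replicate 2) and the neural crest median between -0.87 and -0.02 (R141C day 6 replicate 2 and WT day 0 replicate 2). The primed epiblast median lay between -0.61 and -0.05 (R141C day 6 replicate 2 and R141C day 0 replicate 1) and the BMP median between -0.51 and -0.10 (WT day 0 replicates 1 and 2). Other such values were -0.40 for Nodal and activin genes (WT day 0 replicate 1), -0.40 and -0.07 for paraxial mesoderm factors (R141C day 6 replicates 1 and 2) and -0.27 for immediate early genes (R141C day 6 replicate 2). Some genes stand on more than 1 list, among them Lhx1 and Aldh1a2. Adjusted p in the difference in response was at or above 0.122 for all of these genes.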

How the data were processed

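Expression was measured on 8 one-colour Agilent arrays hybridised with 300 ng of Cy3-labelled RNA. The authors deposited scanner output with spot intensity; per the file headers it comes from Feature Extraction 11.5.1.1, while the submitters' processing notes name 10.5.1.1, and probe positions are in mm9. The deposited detection flags (other) mark spots well above background. The deposited series matrix holds log2 values for 36388 probes, with column medians of 8.99, 8.99, 8.99, 9.00, 9.02, 9.03, 9.03 and 9.04 over the arrays and a correlation of 0.9995 to 0.9999 with log2 of the processed intensity; its normalization stays unknown, and the scale was taken as log2 from this match.

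Processed intensity of 59305 non-control spots was taken as log2 minus the 75th percentile of each array (936 to 1848), with spots of a probe averaged and the probe with the highest mean signal kept for each gene. No spot was saturated, and 98 probes had no value. Genes above background on both arrays of a group entered a limma fit (version 3.58.1, R 4.3.3; 4 group means, two-sided, Benjamini-Hochberg over 25892 genes, adjusted p 0.05; 4 residual and 2.70 prior degrees of freedom). Dim arrays entered fits at their measured signal, and folds against groups without a detected array are lower bounds. The fit was tested on simulated data. Promoters were matched by symbol in a RefSeq table of GRCm38.p6.

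Named genes were Nkx2-5, the 5 with the smallest p for each day of origin and sign, up to 4 per list by smallest p, genes with opposite calls and the 3 largest shared changes each way, among current symbols; exceptions are stated where they occur. Some genes that this rule names are not reported here. The members, lists and rules were chosen with earlier results of these data known. Alternatives covered scaling, background correction, the deposited matrix, filters, probe averaging, the replicate block and each array left out. Same-numbered arrays did not deviate together in every pair of groups (correlations of deviations from -0.14 to 0.34), so replicate numbers were not taken to pair samples.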

Additional observations from a re-analysis of the deposited data

How the results depend on the processing

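No gene passed an adjusted p of 0.05 in the difference in response with limma, or in any fit that left out 1 array (0 to 0), while quantile normalization gave 7, among them Ces2h, Gria1 and Lrrc39, and the deposited matrix gave 1. The 1461 genes at an unadjusted p under 0.05 became 233 with a minimum fold of 2 and 846 to 3039 without 1 array. The 17 genes called at day 6 became 5 with normexp, 1 with the deposited matrix, 0 without a filter, with detection on all 8 arrays, with trend and robust settings, with a minimum fold of 2, with signals raised to the floor and with 2 arrays left out together, and 0 to 117 without 1 array. The 0 calls at day 0 (594 genes higher and 571 lower at an unadjusted p under 0.05) became 1 with normexp and 1 with detection on all 8 arrays. Calls in WT were 1567 with a minimum fold of 2 and 2151 to 6409 without 1 array, and in R141C 852 and 1619 to 4262. The share arising at day 6, 45.2%, was 55.1% at an unadjusted p under 0.01, 67.2% with a single boundary at 1/2, 52.5% by the p of each day, 40.5% with normexp, 41.3% with the deposited matrix, 39.0% with detection on all 8 arrays, 58.4% with a minimum fold of 2, 42.6% with the floor and 15.9% to 71.2% without 1 array. The share of WT calls higher at day 6 was 46.1%, and 63.5% without a filter. The replicate numbers as a block gave 1586 genes at an unadjusted p under 0.05, 0 calls at day 6 and 49.3% arising at day 6; with WT day 0 crossed, chosen after seeing the data, the block gave 0 calls at day 6 and 40.3%. Zhx2 turned to 0.0588 with normexp, and the R141C response of Tmprss9 to -0.328 with probes averaged. The floor and the pair of arrays left out together were also chosen after seeing the data. The causes were not tested. With 2 arrays a group, dim genes near background limit the precision.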
